A study of Mus musculus with 12 samples.

Results

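The 10 genes Cish, Socs1, Socs2, Socs3, Socs5, Socs7, Jak1, Jak2, Stat3 and Stat5b were described in cultured neurons of the entorhinal cortex (EC) in which Dek, a chromatin-binding nuclear phosphoprotein, was silenced or overexpressed. They were taken by gene symbol from a table of 24100 genes, and all 10 had a value in every library. The genes were selected on measured values of these cultures, and which contrast was used is not stated. The Dek-silencing contrast was taken to be the one used, so levels in the hairpin libraries are given as a description with no test, and only Dek overexpression is tested. Cultures came from the EC of C57Bl/6J mouse embryos at embryonic day 17 and were transduced at 7 days in vitro with adeno-associated virus (AAV) at 1e+10 viral genomes per ml of medium. RNA sequencing was done 4 days later from 200 ng of RNA, with 3 wells in each of 4 groups and 12 libraries in all.

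Dek-silenced cultures received AAV1-mCherry-U6-mDEK-shRNA, which carries a small hairpin RNA (shRNA) against Dek under the U6 promoter, a promoter active in all cell types. Their controls received AAV1-mCherry-U6-scrmb-shRNA, with a scrambled hairpin. Dek-overexpressing cultures received AAV1-hSyn1-mDEK-IRES-mCherry, with the mouse Dek cDNA under the neuronal human synapsin promoter, and their controls received the empty vector AAV1-hSyn1-mCherry-WPRE. Whether the wells of a group came from separate dissections was not given in the sources used here, so p-values measure the spread between these wells. The scrambled hairpin and the empty vector differ in construct, and the labels place them in separate silencing and overexpression sets. Whether these sets were cultured and sequenced together was not given in the sources used here. Any difference between hairpin and empty-vector libraries cannot be told apart from one between constructs or between sets.

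Cytokine receptors without a kinase of their own recruit Janus kinases (JAKs), which phosphorylate the receptor and then the STAT transcription factors that dimerize and enter the nucleus. Among the genes STATs switch on are CIS (Cish) and the suppressors of cytokine signalling (SOCS), whose proteins bind receptors or JAKs and damp the same signal. In the developing cortex the pathway is best known for gp130 cytokines acting on STAT3 in the switch of progenitors to astrocytes, and in neurons for trophic and injury responses.

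STAT dimers bind the palindrome TTCNNNGAA, which reads the same on both strands. RefSeq promoter sequences (GRCm38.p6, the assembly of mm10, 250 bases before to 50 bases after each annotated start) were available for 7 of the 10 genes, in 8 entries. None was available for Socs2, Socs5 and Socs7. Stretches of 30 bases are shown for Cish and Socs3, the members whose promoter held the motif. The motif is in capitals, read 5′ to 3′ on the strand of the gene.
Cish, chr9:107296654-107296683, + strand: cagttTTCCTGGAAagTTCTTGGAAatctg
Socs3, chr11:117969502-117969531, - strand: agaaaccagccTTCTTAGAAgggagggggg

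The Cish promoter held 2 matches, whose first bases lay at positions 1 and 12 counted from the annotated start as 1. The Socs3 promoter held 1 match, with its first base at position -154, that is, before the start of that promoter entry. The annotated Socs3 locus runs from 117966079 to 117970336, so this window and its match lay inside the locus. The Stat5b windows also lay inside the Stat5b locus. The promoters of Socs1, Jak1, Jak2, Stat3 and Stat5b held no match in this window. Of 32851 promoters of the same length, 8.30% held at least 1 match and 0.457% held 2 or more. The spacing TTCNNNNGAA was found in 6.95% of promoters and in none of these 8 entries. A match of letters is a description and not a measure of STAT binding, and its relation to the levels of these genes was not tested.

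Dek was measured first as a check of the viruses. It was at 7.98, 6.64 and 8.61 CPM (counts scaled to a common library total) in Dek-silenced libraries, against 35.2, 36.6 and 36.3 CPM in scrambled controls. This was a log2 fold change (log2FC) of -2.23 ± 0.10 (SE), with a false discovery rate (FDR; edgeR quasi-likelihood test with Benjamini-Hochberg adjustment over all genes tested) of 1.3e-08. Dek was at 156, 129 and 143 CPM in Dek-overexpressing libraries, against 36.0, 38.8 and 41.1 CPM in empty-vector controls (log2FC = 1.89 ± 0.08, FDR = 1.4e-08). In scrambled controls against empty-vector controls Dek had a log2FC of -0.10 ± 0.07 (FDR = 0.23).

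The libraries held 15679567 to 18933382 estimated counts. Summed CPM of 12 neuron markers was 8242 to 9172 in Dek-silenced libraries and 9394 to 9477 in scrambled controls, and 8986 to 9320 in Dek-overexpressing libraries and 8979 to 9221 in empty-vector controls, with none of the 12 at 0. At an FDR below 0.05, 2 of the 12 were higher and 5 lower in Dek-silenced against scrambled libraries. Of all genes in that comparison, 26.2% were higher and 28.5% lower. Non-neuronal RNA was also present. Summed CPM of 10 oligodendrocyte-lineage markers was 175 to 282 in Dek-silenced libraries and 93.0 to 152 in scrambled controls. It was 110 to 136 in Dek-overexpressing libraries and 96.9 to 128 in empty-vector controls. At the same threshold 7 of the 10 were higher and 1 lower in Dek-silenced against scrambled libraries. Of 6 dividing-cell markers 3 were higher (summed CPM 111 to 122 in Dek-silenced libraries, 76.2 to 98.4 in scrambled controls). Of 10 astrocyte markers none passed the test in that comparison, with summed CPM of 513 to 882 in Dek-silenced libraries and 545 to 839 in scrambled controls. Microglia markers were at 5.01 to 6.97 summed CPM in Dek-silenced libraries and 5.78 to 9.41 in scrambled controls, and endothelial and mural markers at 9.91 to 10.6 in Dek-silenced libraries and 4.44 to 5.42 in scrambled controls. Of these last lists, 3 of 10 microglia markers and 7 of 10 endothelial and mural markers stayed below 1 CPM in all 12 libraries. Of 6 microglia markers tested 1 was lower and none higher, and of 3 endothelial and mural markers tested 1 was higher and none lower. Aif1 was at 1.06 to 1.31 CPM in Dek-silenced and 3.51 to 3.79 CPM in scrambled libraries. Rgs5 was at 7.11 to 8.35 CPM in Dek-silenced and 1.95 to 2.16 CPM in scrambled libraries, and Pecam1 overlapped between these groups. The part of these cells in any result below was not tested. In bulk RNA, fewer cells of a type and less RNA per cell cannot be told apart.

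Cish was the member with the largest difference. It encodes CIS, a STAT5-induced SH2 protein that binds phosphorylated cytokine receptors. It was at 64.8, 69.5 and 58.7 CPM in Dek-silenced libraries, against 9.70, 8.93 and 10.5 CPM in scrambled controls. The groups lay far apart, with 58.7 CPM in the lowest Dek-silenced library and 10.5 CPM in the highest scrambled one. The log2FC was 2.71 ± 0.09 (SE), a ratio of 6.55, and 25 of the 14232 genes tested had a higher one. The empty-vector controls had 11.3, 11.5 and 12.1 CPM, which gave Dek-silenced libraries a log2FC of 2.47 ± 0.09. The Dek-silenced library with the lowest oligodendrocyte-lineage sum (175 CPM) and the lowest astrocyte sum (513 CPM) had 64.8 CPM of Cish, between the other two. All Dek-silenced oligodendrocyte-lineage sums (175 to 282 CPM) lay above all scrambled ones (93.0 to 152 CPM). The part of these cells in the Cish difference was not tested. Leaving out each library in turn, and every other setting tried, gave Cish a log2FC between 2.60 and 2.81 against the scrambled hairpin.

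**Figure D1:**
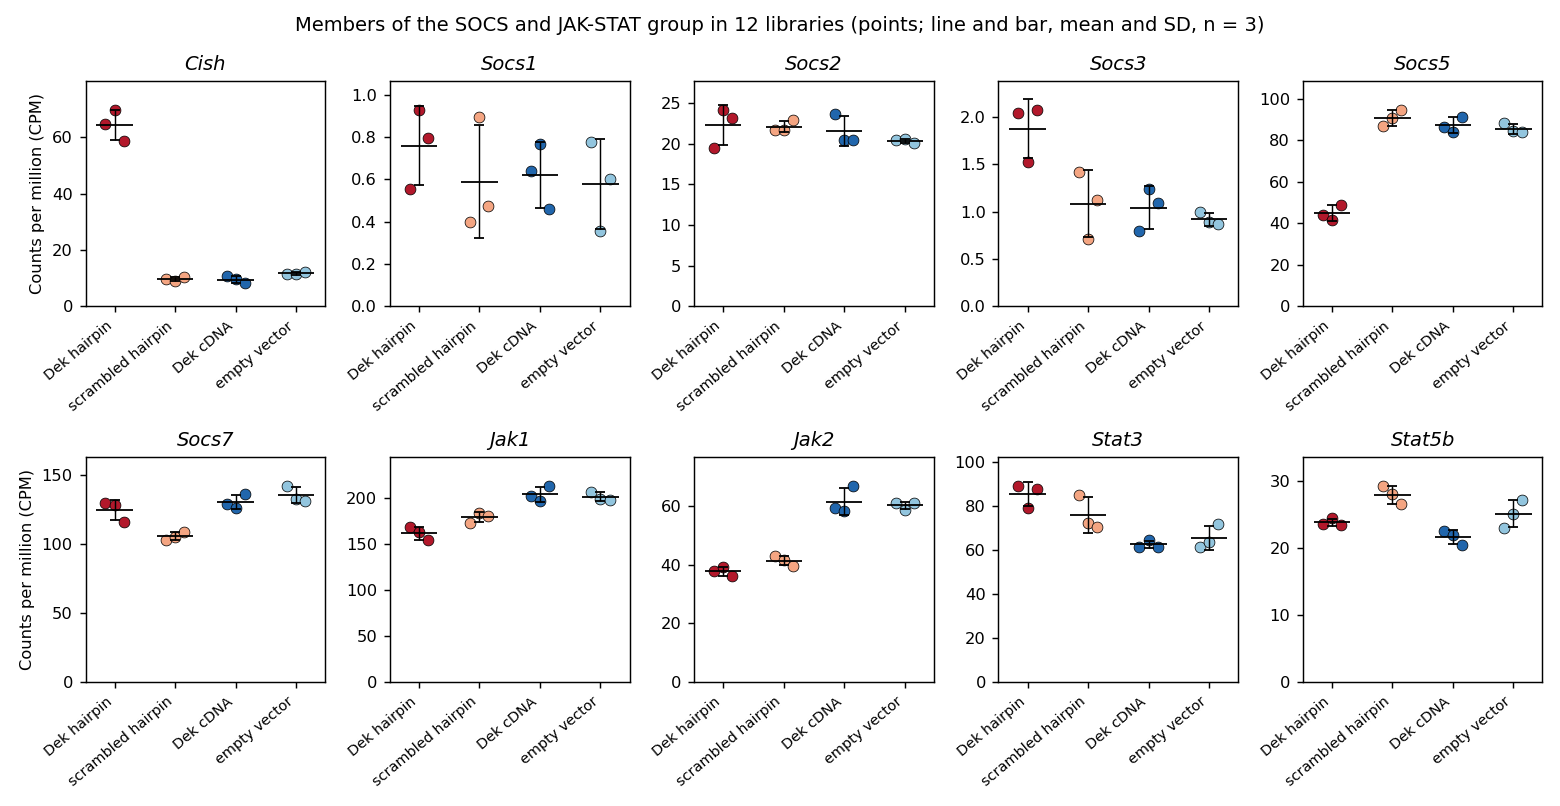
CPM (vertical axes, each from 0) of the 10 genes in the 12 libraries, with the Dek hairpin, the scrambled hairpin, the Dek cDNA and the empty vector from left to right. Points are libraries, and the line and bar are the mean and SD of 3. Cish sits between 58.7 and 69.5 CPM with the Dek hairpin and between 8.09 and 12.1 CPM in all other libraries, and Socs5 between 41.5 and 48.9 CPM with the Dek hairpin and between 83.7 and 94.3 CPM elsewhere.

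Socs5, a SOCS protein known to restrain epidermal growth factor receptor signalling, went the other way. It was at 44.0, 41.5 and 48.9 CPM in Dek-silenced libraries, against 87.0, 90.6 and 94.3 CPM in scrambled controls. All Dek-silenced libraries lay below all scrambled controls, with a log2FC of -1.03 ± 0.07, a ratio of 0.490. With 88.1, 84.4 and 83.7 CPM in empty-vector controls, the log2FC against these was -0.93 ± 0.07. Within a library, the ratio of Cish to Socs5 counts was 1.20 to 1.68 in Dek-silenced libraries and 0.0986 to 0.112 in scrambled controls. It was 0.0888 to 0.122 in Dek-overexpressing libraries and 0.129 to 0.145 in empty-vector controls. This ratio does not depend on how the libraries are scaled.

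Socs3 is induced by STAT3 and blocks JAKs bound to gp130, and it was rare here. It had 33, 28 and 39 estimated counts in Dek-silenced libraries, against 25, 12 and 19 in scrambled controls, or 2.04, 1.52 and 2.07 CPM against 1.42, 0.715 and 1.12 CPM. All 3 Dek-silenced libraries lay above the scrambled controls, the closest pair at 1.52 and 1.42 CPM (log2FC = 0.77 ± 0.30). Empty-vector controls had 0.999, 0.888 and 0.873 CPM, and the log2FC against these was 1.02 ± 0.26. With so few counts the size of the change is poorly fixed, and it ranged between 0.54 and 1.00 over the settings tried against the scrambled hairpin.

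Socs1, the SOCS protein that directly inhibits JAKs downstream of interferon receptors, was close to the detection limit. It had 9, 17 and 15 estimated counts in Dek-silenced libraries and 7, 15 and 8 in scrambled controls, and the groups overlapped. Its log2FC of 0.37 ± 0.41 became 0.79 when scrambled library 2 was left out. No difference of Socs1 was detectable at this depth.

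Socs2, which restrains growth hormone receptor signalling and is, like Cish, a known STAT5 target, did not move with Cish. It was at 19.5, 24.1 and 23.2 CPM in Dek-silenced libraries, against 21.7, 21.7 and 22.9 CPM in scrambled controls. The groups overlapped throughout, and the difference was 0.00 on the log2 scale with an SE of 0.10. The ratio of Cish to Socs2 counts was accordingly 2.53 to 3.32 in Dek-silenced libraries and 0.411 to 0.460 in scrambled controls.

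The direction of Socs7 depended on the control. This SOCS protein, known to bind insulin receptor substrates, was at 130, 128 and 116 CPM in Dek-silenced libraries, against 103, 105 and 109 CPM in scrambled controls (log2FC = 0.22 ± 0.06). Against the empty vector, at 142, 133 and 131 CPM, it was lower (log2FC = -0.12 ± 0.06), and once GC content and length of the transcripts were corrected for, that value turned to 0.13. The scrambled controls were themselves below the empty vector, with a log2FC of -0.36 ± 0.05.

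The kinases differed little between the hairpins. Jak1, the partner of gp130 and of interferon receptors, was at 168, 163 and 154 CPM in Dek-silenced libraries, against 173, 184 and 181 CPM in scrambled controls. The groups did not overlap, and the log2FC was -0.16 ± 0.05. Jak2, the partner of the erythropoietin and growth hormone receptors, was at 37.9, 39.2 and 36.2 CPM in Dek-silenced libraries, against 42.8, 41.7 and 39.7 CPM in scrambled controls (log2FC = -0.15 ± 0.07). With scaling by library size alone these became -0.06 for Jak1 and -0.05 for Jak2, and with the correction for GC content and length -0.08 and -0.01.

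Jak2 differed more between the silencing and the overexpression sets, which also differ in construct, than between Dek levels within a set. It was at 59.3, 58.3 and 66.8 CPM in Dek-overexpressing libraries and 61.0, 58.8 and 60.9 CPM in empty-vector controls, above all 6 hairpin libraries. The scrambled controls were below the empty vector with a log2FC of -0.54 ± 0.06, and Dek-silenced libraries with -0.67 ± 0.06. Jak1 gave -0.17 ± 0.04 in scrambled controls and -0.32 ± 0.05 in Dek-silenced libraries against the empty vector. Once GC content and length were corrected for, Dek-silenced libraries gave -0.35 for Jak2 and -0.10 for Jak1 against the empty vector, and scrambled controls -0.34 for Jak2 and -0.02 for Jak1. The ratio of Jak1 to Jak2 counts was 4.15 to 4.42 in Dek-silenced libraries and 4.03 to 4.55 in scrambled controls, and 3.18 to 3.41 in Dek-overexpressing libraries and 3.26 to 3.39 in empty-vector controls.

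Stat3, the STAT of gp130 cytokines, was at 89.1, 79.2 and 88.0 CPM in Dek-silenced libraries, against 85.2, 72.3 and 70.3 CPM in scrambled controls. These groups overlapped because scrambled library 1 lay above Dek-silenced library 2 (log2FC = 0.15 ± 0.08). Against the empty vector (61.4, 63.8 and 71.8 CPM) the Dek-silenced libraries were all higher, with a log2FC of 0.38 ± 0.07, and the scrambled controls had a log2FC of 0.21 ± 0.08. Stat5b, which carries signals of the growth hormone and erythropoietin receptors, was at 23.6, 24.5 and 23.5 CPM in Dek-silenced libraries, against 29.3, 28.1 and 26.6 CPM in scrambled controls (log2FC = -0.25 ± 0.08). It overlapped the empty vector, at 23.1, 25.2 and 27.2 CPM, with a log2FC of -0.07 ± 0.08.

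Across the 10 genes, all Dek-silenced libraries lay above all scrambled controls for 3 genes and below them for 4, and the groups overlapped for 3. Over all 14232 genes tested, 61.9% had groups that did not overlap. Since the genes were chosen with this contrast known, nothing is read from the comparison of these shares. The median absolute log2FC was 0.235 for the 10 genes and 0.341 for all genes. Against the empty vector the count was again 3 above, 4 below and 3 overlapping (71.0% of all genes did not overlap), and in scrambled against empty-vector controls it was 1, 4 and 5 (53.4% of all genes). Only Cish and Socs3 lay above both control groups in all Dek-silenced libraries, and Socs5, Jak1 and Jak2 below both.

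**Figure D2:**
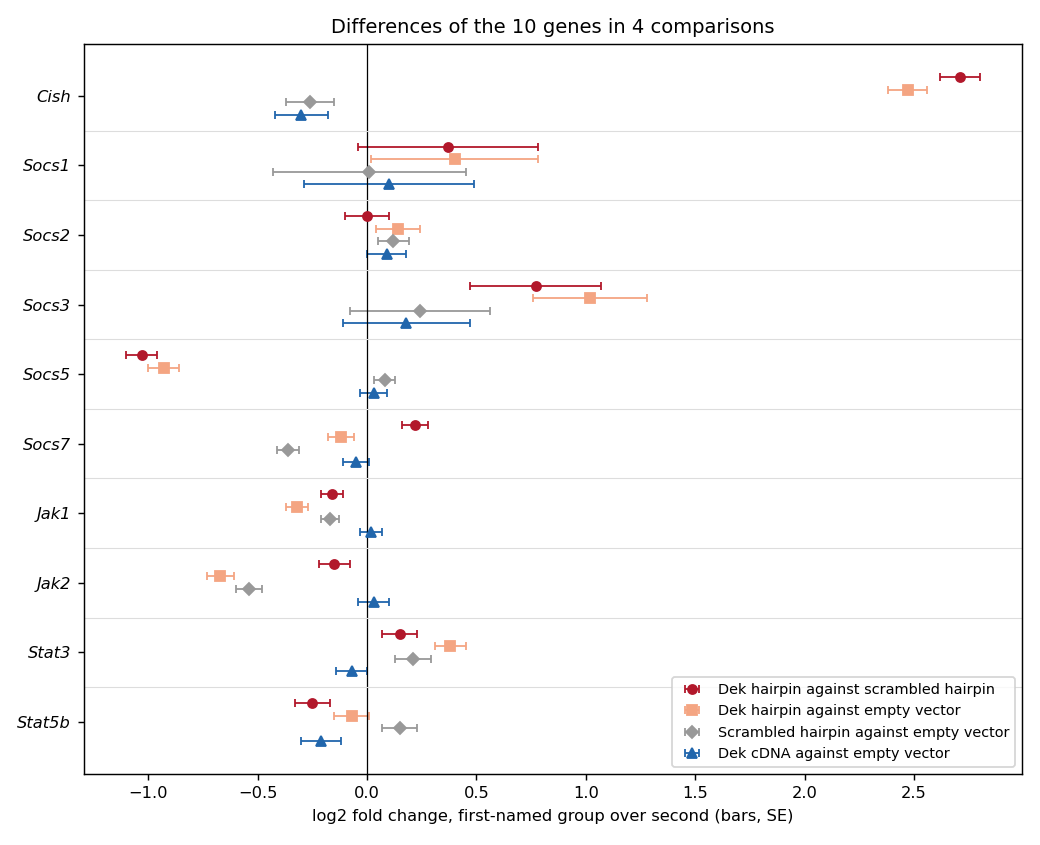
log2FC (horizontal axis, first-named group over second) with its SE for the 10 genes in 4 comparisons, given by color and marker. Cish stands at 2.71 and 2.47 for the Dek hairpin against its 2 controls, and at -0.30 for the Dek cDNA. The grey diamonds show where the scrambled and empty-vector controls differed, most for Jak2 at -0.54 and Socs7 at -0.36.

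Levels of different genes were compared per kb of the longest coding transcript. In empty-vector controls Jak1 was highest at 41.0 ± 0.982 CPM per kb (SD, n = 3), followed by Socs7 (19.3 ± 0.836) and Socs5 (18.4 ± 0.506), whose ranges overlapped. Jak2 (11.7 to 12.1 CPM per kb) and Stat3 (10.2 to 11.9) overlapped as well, and Socs2 came next at 9.15 ± 0.110 CPM per kb. Stat5b (4.83 ± 0.385), Cish (4.08 ± 0.145), Socs3 (0.361 ± 0.0270) and Socs1 (0.199 ± 0.0728) followed with no overlap between neighbours. Cish was eighth of the 10 in the scrambled and Dek-overexpressing groups too. In Dek-silenced cultures it was second, at 22.6 ± 1.91 CPM per kb, between Jak1 (32.9 ± 1.38) and Socs7 (17.8 ± 1.10).

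The 8 genes of the CIS and SOCS family, with Socs4 and Socs6 added to the members, summed to 61.0 to 65.6 CPM per kb in Dek-silenced libraries and 48.6 to 51.8 in scrambled controls. They summed to 51.6 to 54.6 CPM per kb in Dek-overexpressing libraries and 53.0 to 55.5 in empty-vector controls. The make-up changed more than the sum. Cish made 33.8% to 37.2% of it in Dek-silenced libraries and 6.36% to 7.14% in scrambled controls. Socs5 made 13.6% to 17.3% in Dek-silenced libraries and 38.5% to 39.6% in scrambled controls. The share of Socs7 was 27.1% to 29.6% in Dek-silenced libraries and 30.1% to 30.3% in scrambled controls. In Dek-overexpressing libraries Cish made 5.25% to 6.81% and in empty-vector controls 7.16% to 8.01%. These shares follow from the levels above and are a description.

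**Figure D3:**
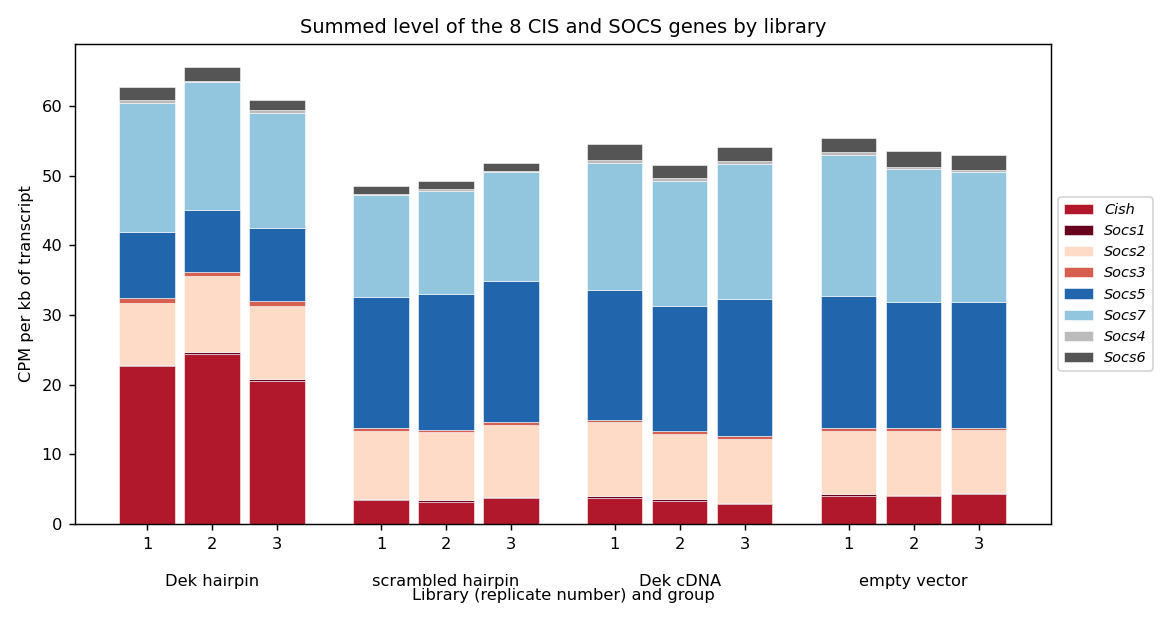
Summed level in CPM per kb of transcript (vertical axis, from 0) of Cish and the 7 SOCS genes in each of the 12 libraries, with the 2 hairpin groups on the left (Dek, then scrambled) and the Dek cDNA and its empty vector on the right. The sum is 61.0 to 65.6 with the Dek hairpin and 48.6 to 55.5 in the other 9 libraries, where the Cish layer is thin and the Socs5 layer thick.

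Whether the genes also responded to more Dek was tested in Dek-overexpressing cultures. Since the contrast behind the choice of genes is not stated, these values may also have been in view when they were chosen. None of the 10 genes passed the FDR threshold of 0.05, where 1 of 14089 genes did, Dek itself (0.00710%). At an unadjusted p below 0.05 there were 2 of the 10, against 6.60% of all genes, and the groups did not overlap for the same 2, against 11.6% of all genes. One of these was Cish, at 10.6, 9.53 and 8.09 CPM in Dek-overexpressing libraries and 11.3, 11.5 and 12.1 CPM in empty-vector controls. Its log2FC was -0.30, with a 95% interval of -0.55 to -0.05 (FDR = 0.69). The other was Stat5b, at 22.6, 22.0 and 20.5 CPM in Dek-overexpressing libraries and 23.1, 25.2 and 27.2 CPM in empty-vector controls, with a log2FC of -0.21 and an interval of -0.40 to -0.02 (FDR = 0.71). Over all settings tried the FDR was 0.33 to 1.0 for Cish and 0.34 to 1.0 for Stat5b.

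The other 8 genes had FDR values of 0.89 to 0.98 with Dek overexpression, and their groups overlapped. The intervals of the difference were narrow for the abundant genes. They ran from -0.09 to 0.16 on the log2 scale for Socs5, from -0.09 to 0.14 for Jak1, from -0.11 to 0.18 for Jak2, from -0.17 to 0.08 for Socs7, from -0.22 to 0.08 for Stat3 and from -0.10 to 0.28 for Socs2. They were wide for Socs3 (-0.45 to 0.80) and Socs1 (-0.74 to 0.93), so that changes of moderate size in these could not be seen. The difference between the responses to silencing and to overexpression was not tested.

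The other genes of the pathway were taken from 7 lists of 118 genes, from which the 10 members were left out, and 72 of these were expressed enough to test in Dek-silenced against scrambled cultures. Of the 72, 24 were higher (33.3%) and 15 lower (20.8%) at an FDR below 0.05, where 26.2% of all genes were higher and 28.5% lower. No test of the lists as such was made. With scaling by library size alone the split was 36 higher and 11 lower, and over all genes 4793 higher and 3210 lower in place of 3730 and 4060. The median log2FC of the 72 genes was 0.23, and that of all genes -0.001.

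Among the remaining SOCS genes and kinases, Socs6 averaged 10.7 ± 1.61 CPM in Dek-silenced and 6.91 ± 0.220 CPM in scrambled cultures (SD, n = 3; log2FC = 0.61, FDR = 0.0028). Against the empty vector (13.4 ± 0.686 CPM) it was lower (log2FC = -0.32, FDR = 0.033), so its direction depended on the control. Tyk2, the JAK of interferon receptors, was higher against both, at 22.1 ± 0.295 CPM in Dek-silenced, 14.6 ± 0.942 in scrambled and 16.9 ± 1.63 in empty-vector cultures (FDR = 1.6e-04 against the scrambled hairpin and 0.0025 against the empty vector). Socs4 (log2FC = 0.67, FDR = 0.051) and Jak3 (log2FC = 0.33, FDR = 0.099) did not pass the test against the scrambled hairpin.

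Among the other STAT genes, Stat2, which acts in the response to type I interferon, was lower. Stat2 fell to 18.5, 19.1 and 16.3 CPM in Dek-silenced cultures, against 40.8, 42.9 and 42.4 CPM in scrambled controls (log2FC = -1.24, FDR = 1.8e-07) and 61.4, 56.4 and 55.6 CPM in empty-vector controls (log2FC = -1.68, FDR = 2.8e-09). Stat5a, the close relative of Stat5b, was at 0.575 ± 0.123 CPM in Dek-silenced and 0.567 ± 0.103 CPM in scrambled cultures (FDR = 0.97). Stat6 was at 1.04 ± 0.262 CPM in Dek-silenced and 0.587 ± 0.115 CPM in scrambled cultures. Against the scrambled hairpin Stat6 passed the filter on low counts only through the Dek-silenced libraries, so its test is not read.

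Of 14 other regulators tested 2 were higher and 2 lower (14.3% each), where 26.2% of all genes were higher and 28.5% lower. Sh2b3, which encodes the adaptor LNK that restrains JAK2 below the erythropoietin and thrombopoietin receptors, rose to 28.8 ± 2.94 CPM in Dek-silenced cultures, against 11.2 ± 0.837 CPM in scrambled controls (log2FC = 1.35 ± 0.10, FDR = 6.4e-07) and 9.81 ± 0.447 CPM in empty-vector controls (log2FC = 1.55, FDR = 3.8e-08). Ptpn11, the phosphatase SHP2, rose to 262 ± 5.15 CPM in Dek-silenced cultures, against 169 ± 0.0709 CPM in scrambled controls (log2FC = 0.62, FDR = 6.3e-07). Ptpn1, the phosphatase PTP1B that acts on JAK2 and TYK2, fell to 63.0 ± 3.97 CPM in Dek-silenced cultures, against 98.7 ± 4.32 CPM in scrambled controls (log2FC = -0.66, FDR = 4.5e-06). Stam, an endosomal sorting adaptor, was lower as well (log2FC = -0.55, FDR = 5.2e-05). The 4 Pias genes, which encode SUMO ligases that bind STATs, had log2FC values of -0.14 to 0.20, and none passed the test.

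Few ligands were expressed: 5 of 28 could be tested in the silencing comparison, and 2 of these were called higher. Clcf1 and Lif, ligands of receptors that contain gp130, were both at low levels. Clcf1 was at 1.94 ± 0.206 CPM in Dek-silenced and 0.466 ± 0.147 CPM in scrambled cultures, and at 1.16 ± 0.330 CPM in empty-vector cultures, against which it passed the test (log2FC = 0.74, FDR = 0.026). Lif was at 1.38 ± 0.509 CPM in Dek-silenced and 0.428 ± 0.0622 CPM in scrambled cultures. Against the scrambled hairpin both passed the filter on low counts only through the Dek-silenced libraries, so these tests are not read. Such genes are among those counted as higher or lower in each list, and the counts are therefore over the genes tested and not over all listed genes.

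Of 21 receptor genes tested 8 were higher (38.1%) and 4 lower (19.0%), where 26.2% of all genes were higher and 28.5% lower. The receptors for the gp130 ligands did not move as one. Cntfr, the ciliary neurotrophic factor receptor, averaged 111 ± 5.44 CPM in Dek-silenced and 70.3 ± 3.67 CPM in scrambled cultures (log2FC = 0.65, FDR = 3.9e-06). Lifr, the leukaemia inhibitory factor receptor, averaged 11.3 ± 0.765 CPM in Dek-silenced and 19.1 ± 2.34 CPM in scrambled cultures (log2FC = -0.77, FDR = 1.2e-04). Both also differed between the controls. In scrambled against empty-vector cultures the log2FC was 0.71 for Cntfr (FDR = 8.1e-06) and -0.47 for Lifr (FDR = 0.0011). Il6st, which encodes gp130, was slightly higher, at 42.7 ± 1.44 CPM in Dek-silenced and 35.2 ± 1.59 CPM in scrambled cultures (log2FC = 0.26, FDR = 0.0068), and against the empty vector it did not pass the test (FDR = 0.20).

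Epor, the erythropoietin receptor that signals through JAK2 and STAT5, was at 2.12 ± 0.433 CPM in Dek-silenced and 0.561 ± 0.220 CPM in scrambled cultures. Ghr, the growth hormone receptor, was at 3.98 ± 0.430 CPM in Dek-silenced and 2.48 ± 0.581 CPM in scrambled cultures (log2FC = 0.67, FDR = 0.021). Il13ra1 was at 0.702 ± 0.167 CPM in Dek-silenced and 2.35 ± 0.641 CPM in scrambled cultures. Il10ra was at 1.27 ± 0.563 CPM in Dek-silenced and 0.136 ± 0.0661 CPM in scrambled cultures. In this comparison Epor and Il10ra passed the filter on low counts only through the Dek-silenced libraries and Il13ra1 only through the scrambled ones, so their tests are not read. Ifnar1, a chain of the type I interferon receptor, did not pass the test against the scrambled hairpin (log2FC = 0.06, FDR = 0.45).

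Of 24 STAT target genes tested 9 were higher (37.5%) and 8 lower (33.3%), where 26.2% of all genes were higher and 28.5% lower. Among the higher ones, Timp1 and Cebpd passed the filter on low counts only through the Dek-silenced libraries, so their tests are not read. Many of these genes answer to other factors too. Cdkn1a, the cell-cycle inhibitor p21 and also a p53 target, averaged 363 ± 26.5 CPM in Dek-silenced and 138 ± 10.9 CPM in scrambled cultures (log2FC = 1.38, FDR = 2.6e-08). Bcl2l1, which encodes the survival protein BCL-XL, averaged 180 ± 4.52 CPM in Dek-silenced and 131 ± 3.89 CPM in scrambled cultures (log2FC = 0.44, FDR = 2.2e-05). Irf1, an interferon-response factor, averaged 4.03 ± 0.646 CPM in Dek-silenced and 1.64 ± 0.400 CPM in scrambled cultures (log2FC = 1.28, FDR = 7.3e-04). In the other direction, Ccnd1, cyclin D1, was at 23.1, 31.4 and 32.4 CPM in Dek-silenced and 68.8, 90.7 and 97.4 CPM in scrambled cultures (log2FC = -1.57, FDR = 2.9e-04), and Myc, the growth regulator, averaged 10.4 ± 1.33 CPM in Dek-silenced and 18.5 ± 1.73 CPM in scrambled cultures (log2FC = -0.84, FDR = 1.0e-04). The acute-phase gene Serpina3n was lower too (log2FC = -0.64, FDR = 0.016).

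**Figure D4:**
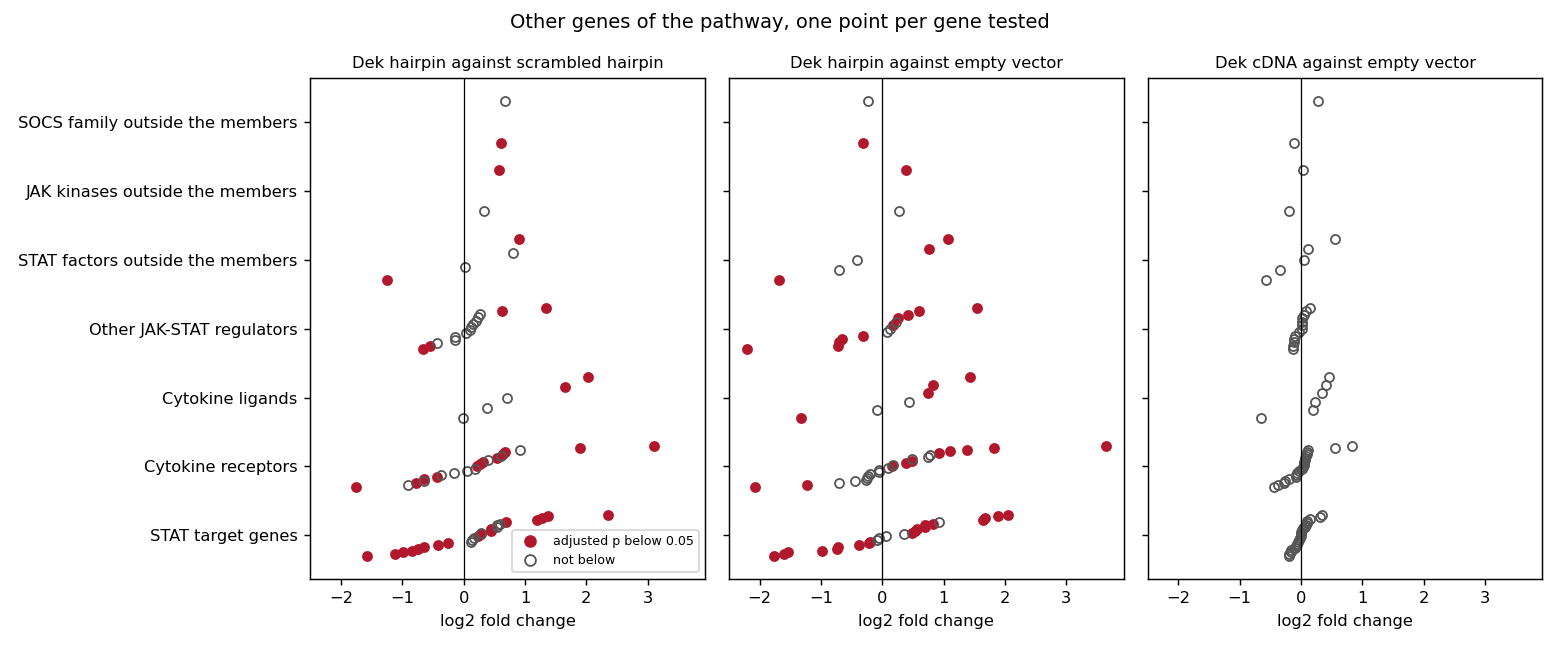
log2FC (horizontal axis) of the other pathway genes, 1 point per gene tested, by list (vertical axis) in 3 comparisons from left to right: Dek hairpin against scrambled hairpin, Dek hairpin against empty vector, and Dek cDNA against empty vector. Filled points passed the FDR threshold: 24 higher and 15 lower in the left panel, 29 higher and 19 lower in the middle panel and none in the right panel. Il10ra is the point farthest to the right in the left and middle panels. Among the filled points, Il10ra, Lif, Epor, Timp1 and Cebpd passed the filter on low counts only through the Dek-silenced libraries in both panels. Clcf1 did so in the left panel and Stat6 in the middle panel. Il13ra1 passed only through the control libraries in both panels, and Il11 did so in the middle panel.

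Against the empty vector, 75 of the 118 genes were tested in Dek-silenced cultures, with 29 higher (38.7%) and 19 lower (25.3%), where 34.0% of all genes were higher and 33.5% lower. In scrambled against empty-vector controls, 8 of 70 were higher (11.4%) and 12 lower (17.1%), where 21.3% of all genes were higher and 21.8% lower. Both remaining SOCS genes were among the lower ones: Socs6 averaged 6.91 ± 0.220 CPM in scrambled and 13.4 ± 0.686 CPM in empty-vector controls (log2FC = -0.95, FDR = 1.5e-05), and Socs4 averaged 1.27 ± 0.283 CPM in scrambled and 2.40 ± 0.209 CPM in empty-vector controls (log2FC = -0.92, FDR = 0.0080). Cbl, a ubiquitin ligase of activated receptors, was at 5.27 ± 0.594 CPM in scrambled and 18.1 ± 2.00 CPM in empty-vector controls (log2FC = -1.78, FDR = 3.3e-07). In Dek-silenced against scrambled cultures Cbl had a log2FC of -0.44 (FDR = 0.051).

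In Dek-overexpressing cultures none of the 72 pathway genes tested passed the FDR threshold, by edgeR, by DESeq2 or by limma-voom. At an unadjusted p below 0.05 there were 4 of the 72, 2 higher and 2 lower, where 6.60% of all genes were below it. Sh2b3 averaged 9.86 ± 0.352 CPM in Dek-overexpressing and 9.81 ± 0.447 CPM in empty-vector cultures (log2FC = 0.01, FDR = 0.99). Stat2 averaged 59.5 ± 2.14 CPM in Dek-overexpressing and 57.8 ± 3.14 CPM in empty-vector cultures (log2FC = 0.04, FDR = 0.93).

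The 5 genes whose pattern over the 12 libraries was most like that of Cish were Ccnd3, Cd276, Gtpbp1, Lrrc8a and Sidt2, with Pearson correlations of 0.995 to 0.992 on log2 CPM among 11018 genes with a mean of at least 5 CPM. The 12 points come from 4 groups, so these are no independent samples, and in all 5 genes the Dek-silenced mean was the highest of the 4. Ccnd3, which encodes cyclin D3, averaged 71.7 CPM in Dek-silenced, 22.5 in scrambled, 21.4 in Dek-overexpressing and 25.5 in empty-vector cultures. Cd276, an immune checkpoint protein, averaged 67.5 CPM in Dek-silenced, 24.3 in scrambled, 26.1 in Dek-overexpressing and 26.8 in empty-vector cultures. None of the 5 was in the pathway lists.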

How the data were processed

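Libraries were made by the authors with a TruSeq RNA sample prep kit. The deposited table holds estimated counts per gene by Entrez identifier, 38.6% of them not whole. The submitters' processing notes name Salmon, DESeq2 and mm10, and the study's methods name fastp, STAR and DESeq2. Whether strand was used in counting was not given in the sources used here. The loci of Socs2, Socs5, Jak1 and Stat3 overlap those of other annotated genes, so their counts are less certain.

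Counts were rounded and fitted per comparison with edgeR 4.0.16 (filterByExpr, TMM, robust quasi-likelihood test, Benjamini-Hochberg adjustment, threshold 0.05) in R 4.3.3. CPM use TMM factors over all 12 libraries. Alternatives were DESeq2 1.42.0, limma 3.58.1 (voom), other scalings and filters, 1 fit of all libraries, a replicate block, a correction for GC content and length, and leaving out each library. The code was tested on simulated data. The 10 genes and all lists were chosen with earlier results of these data known. Named genes were the members, all genes of lists of up to 20, and in longer lists up to 4 per direction with the smallest FDR in a comparison and the 4 with the highest mean. Timp1 and Cebpd were named only because of the filter on low counts. No 2 libraries of the same group agreed within sampling noise. Depth of 15679567 to 18933382 counts leaves Socs1 and Socs3 imprecise.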

Additional observations from a re-analysis of the deposited data

How the results depend on the processing

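Counts of changed genes and of changed pathway genes stayed within 1.5 times of the reported ones under the alternatives run, except for Dek overexpression. There 1 gene was called, against 7 with no filter on low counts and 4 with the correction for GC content and length, and leaving out each library in turn gave 1 to 7 genes, the most without empty-vector library 1 and 6 without Dek cDNA library 2. The cause was not tested, and no pathway gene was called in any of these. Of the members, Socs7 in Dek-silenced against empty-vector libraries turned to 0.13 with the correction for GC content and length. Beside that, 11 of 148 recomputed member values moved by more than the spread between replicates in this comparison, 9 of 148 in Dek-silenced against scrambled and 7 of 148 in scrambled against empty-vector libraries, all with the same sign except Stat5b (0.03 against the empty vector) and Socs1 (-0.42 without scrambled library 2). With the GC content and length correction the Dek-silenced values against the empty vector became 2.24 for Cish, -0.75 for Socs5, -0.10 for Jak1, -0.35 for Jak2 and 0.57 for Stat3, and the scrambled values -0.02 for Jak1, -0.34 for Jak2, -0.18 for Socs7 and 0.36 for Stat3. With Dek overexpression, where no member was called, leaving out single libraries gave log2FC values that crossed or reached 0: -0.15 to 0.36 for Socs1, -0.01 to 0.05 for Jak1, -0.03 to 0.07 for Jak2 and -0.12 to 0.00 for Stat3. No member passed the FDR threshold with Dek overexpression under any setting.

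Same-numbered Dek-silenced and scrambled libraries deviated together with correlations of 0.304, 0.133 and 0.070 and in the other comparisons with -0.212 to -0.020, so the numbers were not taken to pair the wells. With the replicate block 8620 genes and 47 pathway genes changed in Dek-silenced against scrambled cultures, in place of 7790 and 39. Not every library correlated best with its own number. Socs1 and Socs3 had too few counts to be tested at a minimum of 5 CPM in 3 libraries.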

Other observations

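The balance of the measured STATs also differed between libraries. The ratio of Stat3 to Stat5b counts was 3.24 to 3.77 in Dek-silenced libraries and 2.57 to 2.91 in scrambled controls, and 2.72 to 3.01 in Dek-overexpressing libraries and 2.53 to 2.65 in empty-vector controls. Per kb of transcript, Stat2 averaged 4.09 CPM in Dek-silenced cultures and 9.56 in scrambled controls, below and above Stat5b (4.58 and 5.38 CPM per kb). In empty-vector controls Stat2 averaged 13.1 CPM per kb and Stat3 10.9. These ratios are descriptions with no test.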
